A study of Mus musculus with 8 samples.

Results

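The 10 genes described here were listed as fetal and stretch-induced stress genes of the heart. They are Acta1 and Tnni1, isoforms of the fetal heart or of skeletal muscle, and Ankrd1, Xirp2, Fhl1, Enah and Flnc, known as stretch-responsive. The others are the calcineurin regulator Rcan1, the chaperone Clu and the deubiquitinase Uchl1. Neither stretch nor the cell type that made each RNA was measured. The genes were chosen by name, with earlier results of these data known, and each was read at its own locus in the deposited annotation. All 10 of 10 were found among 35299 loci. Their RNA was measured by poly(A)-selected RNA sequencing in 8 C57BL/6J mouse hearts. A group of 4 hearts came from mice with a myocardial infarction (MI), in which muscle dies behind a blocked coronary artery, and a group of 4 came from sham-operated mice (Sham). All mice are labelled as 12 weeks old, and the tissue is the border zone, the muscle next to the infarct or its place in a Sham heart, taken 2 weeks after surgery. The series gives 4 biological replicates per condition.

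When the wall of the ventricle is overloaded or injured, surviving cardiomyocytes switch back on part of the gene set of the fetal heart. Stretch is sensed at the Z-disc, the costamere and the intercalated disc, where proteins such as Ankrd1, Fhl1, Xirp2, filamin C and Mena bind titin or actin. Known routes to the nucleus include SRF with its cofactors of the MRTF family, which bind the CArG box, the TEAD factors, which bind the MCAT element, and calcineurin, which activates NFAT factors.

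Promoter windows of 4 of the genes are shown because they hold the best-known elements of these routes. They are the 250 bases before an annotated start in RefSeq (GRCm38.p6), written 5′ to 3′ on the gene's strand. In the first 3 sequences capitals mark a CArG box or an MCAT element (CATTCC, or GGAATG where it lies on the other strand), and in the Rcan1 sequence capitals mark the NFAT core GGAAA or its reverse complement TTTCC.
Acta1, chr8:123894776-123895025, minus strand: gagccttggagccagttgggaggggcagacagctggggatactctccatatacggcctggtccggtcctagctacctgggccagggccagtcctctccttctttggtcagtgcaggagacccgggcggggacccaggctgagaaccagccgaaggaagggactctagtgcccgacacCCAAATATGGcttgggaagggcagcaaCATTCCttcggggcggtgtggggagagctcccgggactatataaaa
Ankrd1, chr19:36119845-36120094, minus strand: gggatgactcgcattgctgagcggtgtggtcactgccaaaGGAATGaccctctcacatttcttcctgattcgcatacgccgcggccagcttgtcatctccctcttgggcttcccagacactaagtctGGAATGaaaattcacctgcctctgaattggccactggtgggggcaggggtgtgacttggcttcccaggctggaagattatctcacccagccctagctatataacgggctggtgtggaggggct
Fhl1, chrX:56779433-56779682, plus strand: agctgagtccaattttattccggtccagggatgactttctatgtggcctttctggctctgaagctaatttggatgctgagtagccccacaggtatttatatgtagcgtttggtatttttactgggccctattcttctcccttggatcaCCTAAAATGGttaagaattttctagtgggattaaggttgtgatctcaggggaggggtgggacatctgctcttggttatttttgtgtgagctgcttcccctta
Rcan1, chr16:92400079-92400328, minus strand: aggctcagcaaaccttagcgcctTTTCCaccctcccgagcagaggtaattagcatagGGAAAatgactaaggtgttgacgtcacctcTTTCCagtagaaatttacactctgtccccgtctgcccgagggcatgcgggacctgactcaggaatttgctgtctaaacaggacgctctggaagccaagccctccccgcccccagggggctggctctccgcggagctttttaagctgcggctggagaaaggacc
The Acta1 window held a CArG box beginning 73 bases before the annotated start and an MCAT element beginning 46 bases before it. The Ankrd1 window held 2 MCAT elements on the other strand, beginning 210 and 123 bases before the start, and a GATA core (AGATAA) on the other strand. The first of the 2 Fhl1 windows held a CArG box 102 bases before the start. The Rcan1 window lies inside the gene, before the start of the short transcript known as a target of NFAT, and held 3 NFAT cores. RefSeq gave 13 windows of 300 bases (250 before a start and 50 after it) for 9 of the genes, with Clu not matched. On both strands, a CArG box was in 2 of these 13 windows, against 1.63% of all 32851 mouse windows of that length, and an MCAT element in 4 of 13, against 14.7%. Of these 4, a pair are overlapping Flnc windows that hold the same site. The NFAT core was in 5 of 13 windows, against 61.3% of all, and the GATA core in 1, against 11.2%. These are matches of letters, and the libraries carry no measurement of binding.

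The libraries held 165 to 190.2 M reads in loci in MI hearts and 108 to 161 M in Sham hearts. Values are normalised reads, the authors' read count of a locus divided by a size factor of the library. MI replicate 3 stood apart in genes of skeletal muscle: the fast skeletal myosins Myh1, Myh2 and Myh4 summed to 8316 normalised reads in it, against 3.98 to 48.6 in the other MI libraries and 2.27 to 14.8 in Sham libraries. MI replicate 2 was highest in 3 atrial genes, with Myl4, Myl7 and Sln at a sum of 12698 normalised reads, against 186.8 to 584.9 in Sham libraries. MI replicates 3 and 4 also lay above every Sham library, at 4392 and 2645.8, and MI replicate 1 was at 273.7. These 3 were picked from a list of atrial markers that also holds the abundant Nppa. Summed over the 6 tested markers of that list, MI replicate 2 was the lowest MI library, at 271575.5. The other MI libraries were at 418898 to 427569 and the Sham libraries at 18226 to 22529. Of the cardiomyocyte markers 4 of 9 tested were lower in MI and none was higher by limma, edgeR or DESeq2 (0 at an unadjusted p under 0.05 in limma), with summed levels of 4435767 to 5310443 normalised reads in MI and 6184999 to 6773981 in Sham. With the size factors, 20.8% of all tested loci were called higher and 20.1% lower. With values divided by the library total (total scaling), 2 of the 9 markers were higher and 3 lower. On that scale 44.4% of all 19186 tested loci were higher and 1498 loci were lower. In bulk tissue, fewer cells of a type and less RNA per cell cannot be told apart. The titles of the Sham samples, but not of the MI samples, mark them as analysed again, so an effect of that and of infarction cannot be told apart. Groups follow the titles, which match the treatment field. They conflict with the source field, which calls every sample Sham, and with some descriptions.

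All 10 genes were higher in MI than in Sham hearts, and for all 10 the lowest MI library lay above the highest Sham library. Over all 19186 loci tested, 40.9% were called in either direction, 20.8% were called higher, and 19.7% had all MI libraries above all Sham libraries. The median log2 difference of the 10 genes was 1.22, against -0.02 over all tested loci, and 7 of the 10 were at least 2-fold higher, where 9.04% of tested loci were both called and that much higher. Because the genes were chosen with earlier results of these data known, these counts describe them and do not test the list. Together the 10 genes took 0.797% to 1.23% of the reads of MI libraries and 0.281% to 0.346% of the reads of Sham libraries. Calls are from limma with an intensity trend on log2(normalised reads + 1), at a Benjamini-Hochberg adjusted p under 0.05 over all tested loci, and log2 differences are given ± their standard error.

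**Figure D1:**
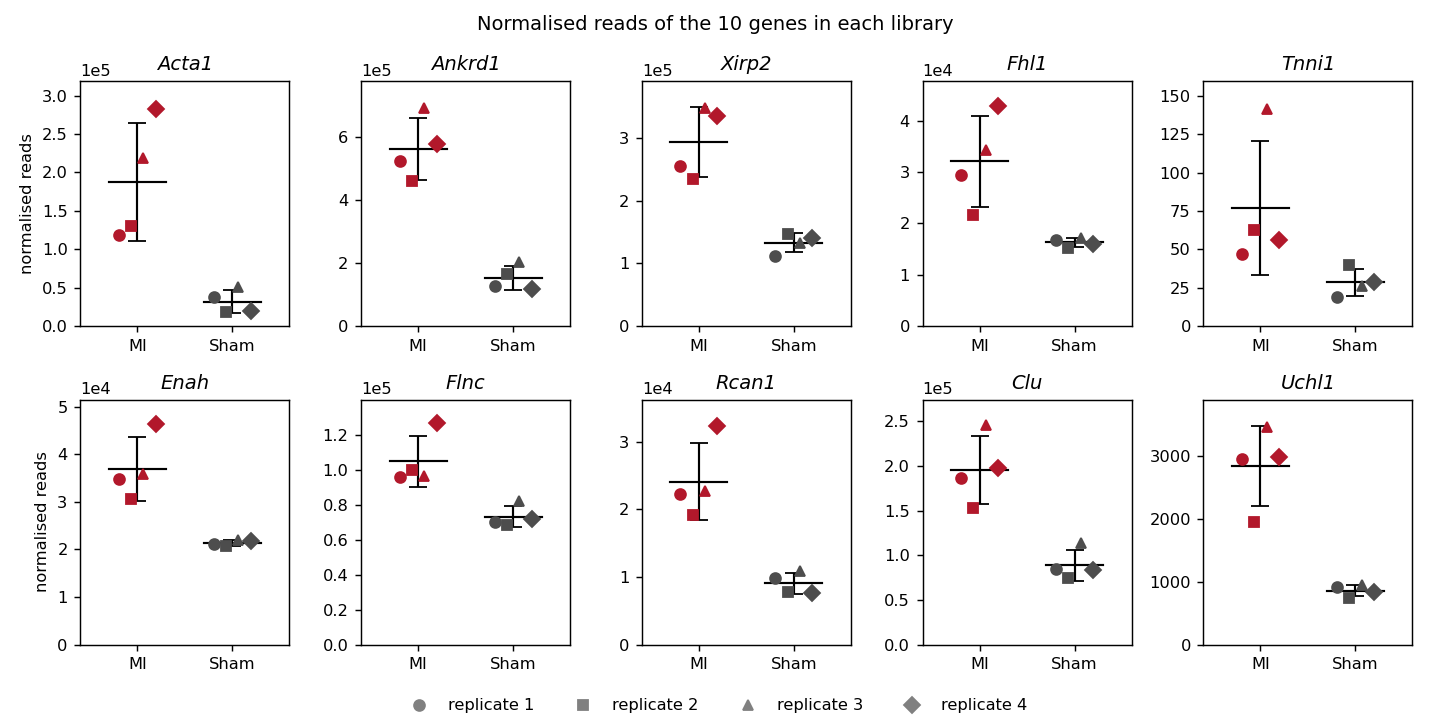
Normalised reads of each of the 10 genes (y axis, from 0, scaled per gene) in 4 MI and 4 Sham libraries, with 1 symbol per replicate, a bar at the mean and whiskers of 1 SD. In every panel the lowest MI library lies above the highest Sham library, and MI replicate 3 stands apart for Tnni1 at 141.7 normalised reads.

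Acta1 encodes skeletal muscle alpha-actin, the sarcomeric actin that the fetal heart shares with skeletal muscle (mm9 chr8:126415667-126418636, minus strand). Its level was 118948, 130412, 218968 and 282077.5 normalised reads in MI replicates 1 to 4, and 37296.5, 18333, 50459 and 20095 in Sham replicates 1 to 4. The groups did not overlap, although the libraries of either group spread widely, with a coefficient of variation of 41.2% in MI and 48.3% in Sham. The mean was 187601 ± 77230.3 in MI and 31546 ± 15237 in Sham (SD, n = 4 each), a ratio of 5.95 and the largest difference among the 10 genes (log2 difference 2.61 ± 0.35, limma adjusted p = 2.73e-04). Of all tested loci, 98.5% had a smaller log2 difference. The MI library with the most Acta1 was replicate 4, in which the fast skeletal myosins summed to 6.98 normalised reads. Without MI replicate 3, the library rich in skeletal muscle genes, the log2 difference was 2.50 (adjusted p = 0.00115). The part of skeletal muscle tissue in the Acta1 difference was not tested beyond these values.

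Acta1 was also set against its cardiac relative within each library, a ratio that no scaling between libraries can change. Actc1, cardiac alpha-actin, averaged 1281905 ± 107203 normalised reads in MI and 1388903 ± 227778 in Sham and was not called (log2 difference -0.11 ± 0.15, adjusted p = 0.611). Its sign turned with the scaling, to 0.20 after total scaling (adjusted p = 0.0964) and to 0.29 after scaling to the cardiomyocyte markers (adjusted p = 0.0385). Actc1 is itself among those markers, so that scale is partly made of its own values and cannot test it. Per kb of exon the ratio of Acta1 to Actc1 was 0.1, 0.1, 0.162 and 0.194 in MI replicates 1 to 4, and 0.0238, 0.0151, 0.0298 and 0.016 in Sham replicates 1 to 4. The lowest MI ratio lay well above the highest Sham ratio, and the mean log2 ratio differed by 2.71. Skeletal alpha-actin RNA stayed below the cardiac form in every library on the per-length scale.

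Tnni1 encodes slow skeletal troponin I, the troponin I isoform of the fetal heart, which Tnni3 replaces after birth (mm9 chr1:137696033-137707542, plus strand). Its level was 47.1, 62.6, 142 and 55.9 normalised reads in MI replicates 1 to 4, and 19.1, 39.9, 26.1 and 28.4 in Sham replicates 1 to 4. The groups did not overlap, but MI replicate 1 and Sham replicate 2 lay close to the edge between them, and MI replicate 3 stood far above the rest. The log2 difference was 1.31 ± 0.35 (limma adjusted p = 0.013), with a mean of 76.8 ± 43.7 in MI and 28.4 ± 8.62 in Sham. It was the least abundant of the 10 genes, with 16 to 172 reads per library, and 24.2% of tested loci had a lower mean. Without MI replicate 3 the log2 difference was 0.97 (adjusted p = 0.0259), and without MI replicates 2 and 3, a choice made after the values were seen, it was 0.88 and no longer called (adjusted p = 0.0741). The part of skeletal muscle tissue in the Tnni1 difference was not tested beyond these fits. Tnni3 shares its locus with other genes and has no value of its own, so the ratio of the fetal to the adult isoform is not given. A second locus with the exon structure of a Tnni1 transcript ends 14356 bases before the first, at a mean of 7.42 normalised reads in MI and 2.87 in Sham, too low to be tested.

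Of the genes listed as stretch-responsive, Ankrd1 had the largest difference (mm9 chr19:36184841-36195013, minus strand). Its product, cardiac ankyrin repeat protein, binds titin in the I-band and can enter the nucleus. Its level was 524704.5, 460164, 692585 and 580317 normalised reads in MI replicates 1 to 4, and 126218.5, 165303, 202065 and 117923 in Sham replicates 1 to 4. The lowest MI library held 2.28 times the highest Sham library. Ankrd1 averaged 564443 ± 98532 in MI and 152877 ± 38757 in Sham (SD, n = 4 each), a ratio of 3.69 (log2 difference 1.90 ± 0.18, limma adjusted p = 3.44e-05). In MI hearts it was the most abundant of the 10 genes per length, at 139094 ± 24281 normalised reads per kb of exon, beside 130915 ± 53894 for Acta1 and 117196 ± 23006 for Clu. In Sham hearts Clu came first with 53274 ± 10340.3, followed by Ankrd1 with 37673 ± 9551 and Acta1 with 22014 ± 10633. These 3 genes do not separate from each other in MI beyond their spread, while no other gene of the 10 exceeded 10811 per kb on average in MI.

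Xirp2, a Xin-repeat protein that binds actin at the costamere and the intercalated disc, rose to a lesser extent (mm9 chr2:67284059-67379829, plus strand). Its level was 255418, 235157, 347476 and 335482 normalised reads in MI replicates 1 to 4, and 111343, 147184, 132548 and 141079.7 in Sham replicates 1 to 4. Every MI library lay at least 1.6 times above the highest Sham library, and the log2 difference was 1.13 ± 0.14 (adjusted p = 1.88e-04). The locus shares 12213 of its 27137 exon bases (45.0%) with a locus of the other strand that is listed at 0 in all 8 libraries. Whether the libraries keep strand is not given in the sources used here, and neither is how reads in shared bases were counted. If all reads lay in the unshared exon bases, the level per kb would be 19660 in MI and 8914 in Sham, in place of 10811 in MI and 4902.5 in Sham.

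Fhl1 encodes a LIM-domain protein that binds titin and takes part in the response to pressure load (mm9 chrX:53984510-54046523, plus strand). Its level was 29515, 21669, 34396 and 42818 normalised reads in MI replicates 1 to 4, and 16855, 15132.5, 17113 and 16022 in Sham replicates 1 to 4. The Sham libraries lay within a narrow range (coefficient of variation 5.5%) and the MI libraries spread widely above it (27.6%), with replicate 2 nearest to Sham. The log2 difference was 0.94 ± 0.17 (adjusted p = 0.00137).

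Enah, also called Mena, promotes the growth of actin filaments and lies at the intercalated disc (mm9 chr1:183826190-183950111, minus strand). Its level was 34698, 30533, 35785 and 46395 normalised reads in MI replicates 1 to 4, and 21077, 20639, 21966 and 21853 in Sham replicates 1 to 4. The Sham libraries were the most uniform of the 10 genes (coefficient of variation 2.97%) and lay below every MI library. The log2 difference was 0.77 ± 0.11 (adjusted p = 3.96e-04), a ratio of means of 1.72.

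Flnc encodes filamin C, which crosslinks actin at the Z-disc and is refolded or degraded when stretch unfolds it (mm9 chr6:29378719-29411888, plus strand). Its level was 95822, 99732, 96168.5 and 126631 normalised reads in MI replicates 1 to 4, and 70009, 68185, 81921 and 71898 in Sham replicates 1 to 4. This was the smallest difference of the 10 genes, with a log2 difference of 0.51 ± 0.10 (adjusted p = 0.00304) and a lowest MI library only 1.17 times the highest Sham library. Its neighbour Ccdc136, which ends 1766 bases before Flnc on the same strand, was also higher, at 616.4 ± 98.3 normalised reads in MI and 244.5 ± 27.0 in Sham (log2 difference 1.32 ± 0.14, adjusted p = 6.83e-05).

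Rcan1 binds calcineurin and can inhibit it, and its short transcript is itself a target of calcineurin and NFAT (mm9 chr16:92392198-92466391, minus strand). Its level was 22336, 19155, 22671 and 32355 normalised reads in MI replicates 1 to 4, and 9880.1, 7817, 10869 and 7682 in Sham replicates 1 to 4. All MI libraries lay at least 1.76 times above the highest Sham library, with a log2 difference of 1.40 ± 0.16 (adjusted p = 1.03e-04). The values join all transcripts of the locus, so the short form beside the NFAT cores shown above cannot be told from the long one.

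Clu encodes clusterin, a secreted chaperone that binds misfolded proteins (mm9 chr14:66587462-66600385, plus strand). Its level was 186292, 152550.3, 245362 and 198198 normalised reads in MI replicates 1 to 4, and 84889.7, 74034, 113813 and 82919 in Sham replicates 1 to 4. The groups were 1.34 times apart at their nearest libraries, and the log2 difference was 1.14 ± 0.16 (adjusted p = 3.43e-04). Fibroblasts and macrophages can also express Clu. Their markers moved in the same direction: 10 of 10 fibroblast markers tested were higher in MI, with sums of 598657 to 923707 normalised reads in MI and 114782 to 168832 in Sham, and 7 of 7 macrophage markers, with sums of 23564 to 30956 in MI and 14215 to 19926 in Sham. The most abundant fibroblast markers were Col3a1, at 264453 ± 62690.0 normalised reads in MI and 30399 ± 12517 in Sham, and Col1a2, at 153865 ± 41896 in MI and 21456 ± 4796 in Sham. Over all tested loci 20.8% were called higher. The part of fibroblasts and macrophages in the Clu difference was not tested.

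Uchl1 removes ubiquitin and is best known from neurons (mm9 chr5:67067527-67078473, plus strand). Its level was 2960.1, 1948, 3461 and 2989 normalised reads in MI replicates 1 to 4, and 908.4, 744.8, 942.4 and 834.1 in Sham replicates 1 to 4. The lowest MI library held 2.07 times the highest Sham library, with a log2 difference of 1.70 ± 0.16 and the smallest adjusted p of the 10 genes (3.13e-05). Of 8 tested neuron and Schwann cell markers 3 were higher and 1 lower, against 20.8% and 20.1% of all tested loci. After total scaling 4 were higher and 0 lower, where 44.4% of all tested loci were higher. The summed level of these markers overlapped between groups, at 1439.5 to 1674 normalised reads in MI and 1388 to 1708 in Sham. The most abundant of them, Stmn2, was at 886.1 ± 110.2 in MI and 824.5 ± 84.7 in Sham (log2 difference 0.10 ± 0.12, adjusted p = 0.512), and Dbh at 377.5 ± 40.5 in MI and 489.1 ± 45.6 in Sham was lower (log2 difference -0.37 ± 0.12, adjusted p = 0.0268) but not after total scaling (-0.07, adjusted p = 0.644) or when any of 4 libraries was left out singly (largest adjusted p = 0.0793). The 3 members of this list that rose, chosen here as all those called higher, were of low level. Gap43, a growth cone protein, was at 59.0 ± 3.08 normalised reads in MI and 18.2 ± 7.67 in Sham (log2 difference 1.75 ± 0.33, adjusted p = 0.00184). Prph, an intermediate filament of peripheral neurons, was at 37.9 ± 8.15 in MI and 15.2 ± 3.41 in Sham (1.27 ± 0.27, adjusted p = 0.00367). S100b, a glial calcium-binding protein, was at 23.0 ± 0.56 in MI and 11.3 ± 5.47 in Sham (1.06 ± 0.32, adjusted p = 0.0223), and lost its call when any of 3 libraries was left out singly (largest adjusted p = 0.056). The part of nerve cells in the Uchl1 difference was not tested.

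**Figure D2:**
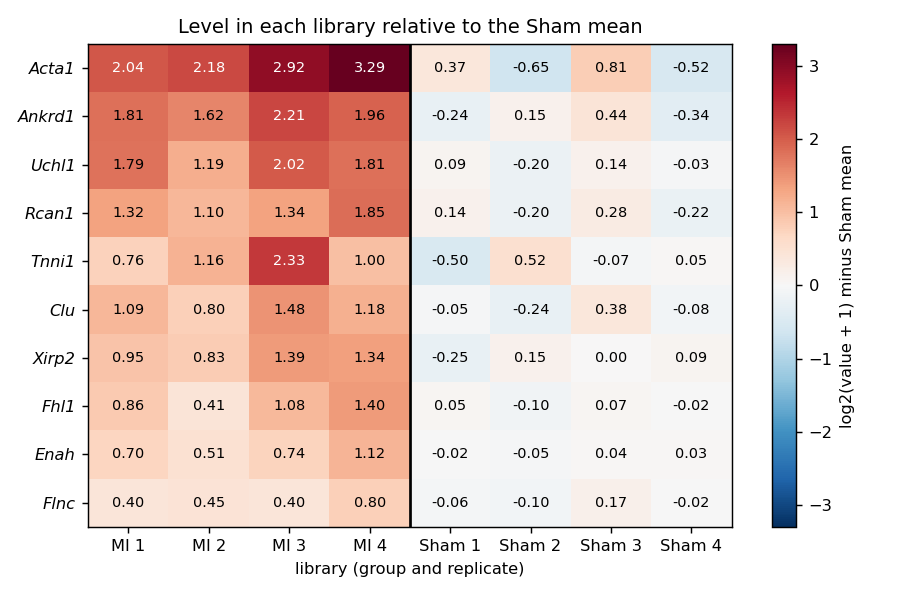
Level of each gene (rows) in each library (columns) as log2(normalised reads + 1) minus the Sham mean of that gene, with MI libraries on the left. Values in MI libraries run from 0.40 for Flnc to 3.29 for Acta1, and MI replicate 2 is lowest in 7 of the 10 rows.

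The 10 genes did not rank the MI hearts in the same way, but the extremes recurred. MI replicate 2 had the lowest MI value of 7 genes and replicate 1 of the other 3, whereas replicates 3 and 4 each had the highest value of 5 genes. The median of the 10 log2 values relative to the Sham mean was 1.02, 0.96, 1.44 and 1.37 in MI replicates 1 to 4. Among Sham hearts replicate 3 had the highest value of 8 genes, with a median of 0.16, and replicate 2 the lowest of 6, with a median of -0.10. MI replicate 2 was also the library with the lowest fibroblast marker sum in MI (598657 normalised reads) and the highest level of the 3 atrial genes, and the part of either in its lower values was not tested.

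**Figure D3:**
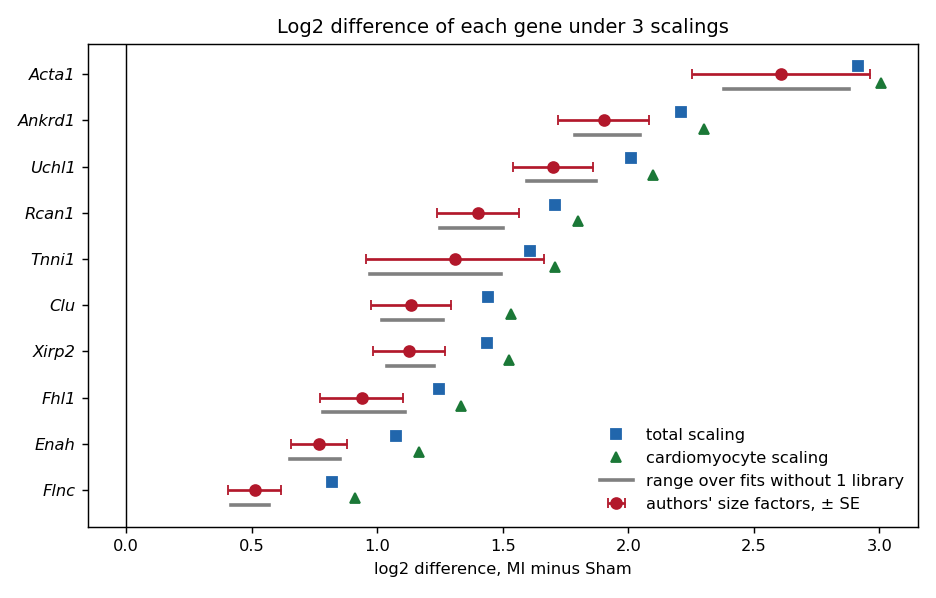
Log2 difference of each gene, MI minus Sham (x axis), with the authors' size factors (circles, ± SE), after total scaling (squares) and after cardiomyocyte scaling (triangles), and the range over fits that each leave out 1 library (grey bars). All points lie above 0, from 0.51 for Flnc to 3.00 for Acta1. A change of scale shifts all genes by about the same amount by construction, so their order is nearly the same under the 3 scalings.

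Another scale divides each library by another factor, so by construction it moves every log2 difference by about the same amount. Total scaling and scaling to the cardiomyocyte markers both moved the differences upward, so no direction among the 10 genes could change. After total scaling the median of all tested loci moved to 0.29 and that of the 10 genes to 1.53. The genes stood 1.24 above the median of all loci both with the size factors and after total scaling, which the construction fixes in advance. Under total scaling 44.4% of tested loci were called higher, and the share of calls that were higher was 85.1%, against 50.9% with the size factors. Each library was also scaled to its own cardiomyocyte markers, which moved the median of all loci to 0.38. On that scale the differences ran from 0.91 for Flnc to 3.00 for Acta1, all 10 genes were called, and 52.4% of all tested loci were called higher.

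**Figure D4:**
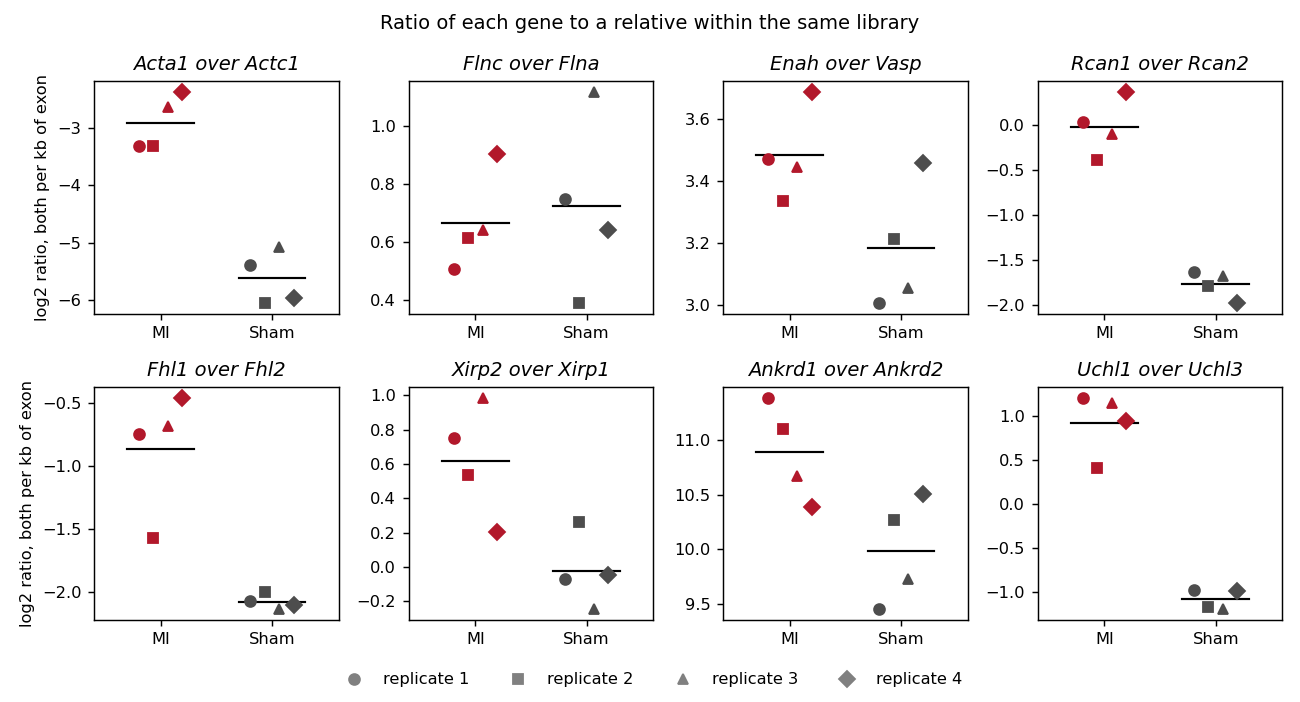
Log2 ratio of each gene to a relative in the same library, both per kb of exon (y axis, scaled per panel), in 4 MI and 4 Sham libraries, with a bar at the group mean. The groups are apart for the ratios of Acta1, Rcan1, Fhl1 and Uchl1 and overlap for those of Flnc, Enah, Xirp2 and Ankrd1.

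For 8 of the genes the ratio to a relative could be read within the same library. The ratio of Uchl1 to Uchl3, another ubiquitin hydrolase, was 1.32 to 2.3 in MI and 0.437 to 0.509 in Sham, a mean log2 difference of 2.00. Rcan1 against Rcan2 gave ratios of 0.763 to 1.29 in MI and 0.254 to 0.323 in Sham, a log2 difference of 1.74. Fhl1 against Fhl2, the related LIM protein of the adult heart, gave 0.338 to 0.729 in MI and 0.228 to 0.251 in Sham, a log2 difference of 1.21. None of these 3 ratios overlapped between groups.

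The other ratios overlapped. Filamin C against the widely expressed filamin A gave 1.42 to 1.87 in MI and 1.31 to 2.17 in Sham, a log2 difference of -0.06, and Flna itself was higher in MI at 40769 ± 1733 normalised reads against 27654 ± 3859.8 in Sham (log2 difference 0.57 ± 0.10, adjusted p = 0.00101). Enah against Vasp gave 10.1 to 12.9 in MI and 8.04 to 11.0 in Sham, with Vasp called higher (log2 difference 0.47 ± 0.10, adjusted p = 0.00481). Xirp2 against Xirp1 gave 1.15 to 1.98 in MI and 0.843 to 1.2 in Sham, and Ankrd1 against Ankrd2, a skeletal muscle relative, 1340 to 2680 in MI and 699 to 1450 in Sham. Neither Xirp1 (log2 difference 0.48 ± 0.19, adjusted p = 0.0599) nor Ankrd2 (0.98 ± 0.38, adjusted p = 0.0578) was called, and both were called after total scaling (adjusted p = 0.00277 and 0.0148).

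Over all relatives, 6 of 16 tested were higher and 3 lower in MI, against 20.8% and 20.1% of all tested loci, with a median log2 difference of 0.33. The largest difference was that of Fhl5, which was at 27.2, 56.0, 86.5 and 19.2 normalised reads in MI replicates 1 to 4 and between 6.82 and 12.6 in Sham libraries (log2 difference 1.95 ± 0.44, adjusted p = 0.00528). Without MI replicates 2 and 3 it was 1.17 and not called (adjusted p = 0.0504). Acta2, smooth muscle alpha-actin, was higher at 15625 ± 2286 in MI and 10694 ± 2636 in Sham (log2 difference 0.57 ± 0.16, adjusted p = 0.0145), with groups that overlapped. The genes called lower were Rcan2 (log2 difference -0.34 ± 0.09, adjusted p = 0.0118), Uchl5 (-0.35 ± 0.10, adjusted p = 0.0185) and Uchl3 (-0.30 ± 0.10, adjusted p = 0.0376). None of the relatives was called lower after total scaling, where these 3 genes lay between -0.04 and 0.01, and Uchl3 lost its call when any of 5 libraries was left out singly (largest adjusted p = 0.102, without MI replicate 1).

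**Figure D5:**
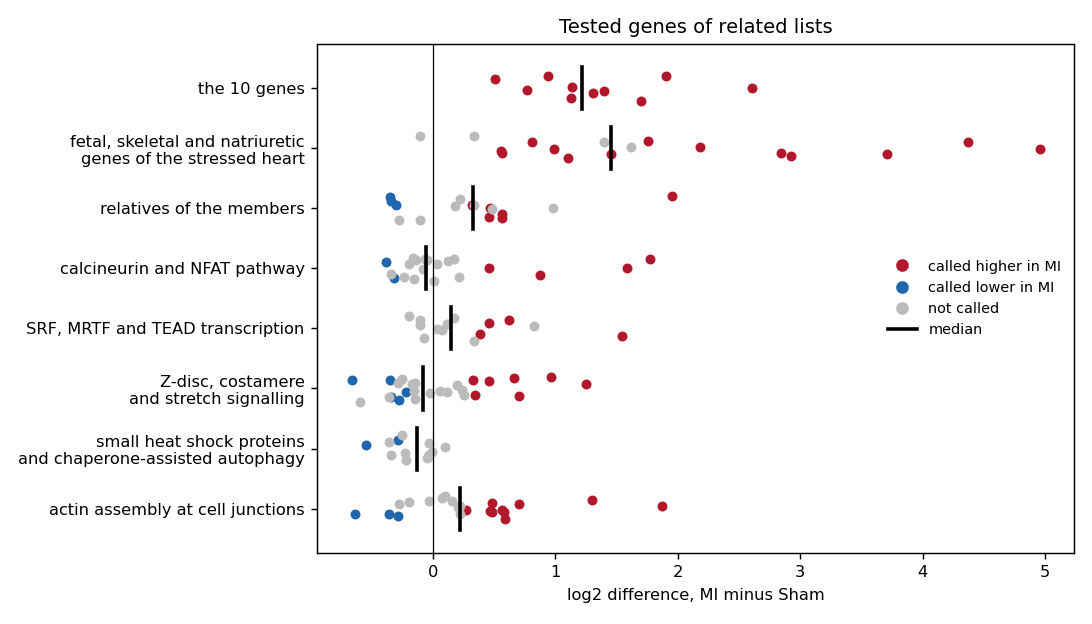
Log2 difference, MI minus Sham (x axis), of each tested gene in the list of the 10 genes and in 7 related lists (rows), coloured by call, with a bar at the median of each list. The medians run from -0.13 for small heat shock proteins and chaperone-assisted autophagy to 1.46 for fetal, skeletal and natriuretic genes, beside 1.22 for the 10 genes.

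A wider list joined fetal and skeletal muscle isoforms with natriuretic and other stress genes, such as Gdf15 and Cdkn1a. It also held the smooth muscle genes Acta2, Actg2 and Myl9, all of them called higher in MI. Of 17 tested fetal, skeletal and natriuretic genes of the stressed heart, 13 were higher in MI and none was lower by limma, edgeR or DESeq2 (0 at an unadjusted p under 0.05 in limma), with a median log2 difference of 1.46, where 20.8% of all tested loci were higher. Actc1, Tnni2 (log2 difference 0.34, adjusted p = 0.733), Tnnc2 (1.40, adjusted p = 0.384) and Mybpc1 (1.62, adjusted p = 0.287) did not pass the test, and Myh3 lay below the filter on low values. Nppa, atrial natriuretic peptide, was at 372116 ± 80824 normalised reads in MI and 17713 ± 1464 in Sham (log2 difference 4.37 ± 0.16, adjusted p = 2.76e-07). Gdf15, a secreted stress cytokine, was at 2800 ± 583.3 in MI and 248.9 ± 174.9 in Sham (3.71 ± 0.38, adjusted p = 4.96e-05). Myl7, atrial myosin light chain, was at 9.94, 4564, 1532 and 829.9 in MI replicates 1 to 4 and between 2.27 and 118.3 in Sham libraries, so its groups overlapped. Its call (4.96 ± 1.66, adjusted p = 0.0343) was lost when any of 6 libraries was left out singly, with a largest adjusted p of 0.092 without Sham replicate 3. Without MI replicates 2 and 3, 10 of the 17 genes were called higher and the median was 0.87.

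Of 20 tested genes of the calcineurin and NFAT pathway, to which Rcan1 belongs, 4 were higher and 2 lower in MI, with a median of -0.05. Over all tested loci 20.8% were higher and 20.1% lower, so the higher calls of this list are at the background share. The largest differences were those of Myoz1, a calcineurin-binding Z-disc protein of fast skeletal muscle, at 92.1 ± 62.7 normalised reads in MI and 22.6 ± 5.44 in Sham (log2 difference 1.78 ± 0.42, adjusted p = 0.00641), and Trpc6, a cation channel upstream of calcineurin, at 84.9 ± 19.6 in MI and 28.1 ± 8.28 in Sham (1.59 ± 0.29, adjusted p = 0.00152). Nfatc4 was at 1637 ± 448.7 in MI and 868.3 ± 109.5 in Sham (0.88 ± 0.19, adjusted p = 0.00361). After total scaling 11 of the 20 were called higher and none lower, where 44.4% of all tested loci were higher.

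Of 14 tested factors of the SRF, MRTF and TEAD routes, 4 were higher and none was lower by limma, edgeR or DESeq2 (0 at an unadjusted p under 0.05 in limma), with a median of 0.15, where 20.8% of all tested loci were higher. After total scaling 12 were higher, where 44.4% of all tested loci were. Vgll3, a TEAD cofactor, was at 1199.8 ± 288.6 normalised reads in MI and 402.8 ± 27.3 in Sham (log2 difference 1.54 ± 0.16, adjusted p = 5.00e-05). Tead2 was at 1018 ± 149.2 in MI and 655.9 ± 58.7 in Sham (0.62 ± 0.12, adjusted p = 0.00206). Mrtfa was at 2175 ± 241.6 in MI and 1573 ± 80.2 in Sham (0.46 ± 0.09, adjusted p = 0.00247).

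The proteins that lie beside these genes' products at the Z-disc and the costamere gave 7 genes higher and 5 lower of 26 tested and a median of -0.08, near the 20.8% higher and 20.1% lower of all tested loci. This split moved with the scaling, as that of all loci did. After total scaling 14 were higher and 1 lower, where 44.4% of all tested loci were higher. After cardiomyocyte scaling 17 were higher and 1 lower, where 52.4% of all tested loci were higher. The list median minus the median of all loci was -0.064 with the size factors, -0.062 after total scaling and -0.065 after cardiomyocyte scaling. Synpo2l, an actin-binding Z-disc protein, was at 64157 ± 20093 normalised reads in MI and 26052 ± 1082.5 in Sham (log2 difference 1.25 ± 0.18, adjusted p = 3.32e-04). Pdlim3, a PDZ and LIM protein of the Z-disc, was at 3488 ± 616.5 in MI and 1805.5 ± 451.3 in Sham (0.96 ± 0.17, adjusted p = 0.00128). Zyxin (Zyx), which moves to stretched actin fibres, was at 13962 ± 1589.7 in MI and 8658 ± 1706 in Sham (0.70 ± 0.13, adjusted p = 0.00189). Among the small heat shock proteins and factors of chaperone-assisted autophagy, which handle damaged filamin, none of 14 tested was higher by limma, edgeR or DESeq2 (0 at an unadjusted p under 0.05 in limma) and 2 were lower by limma, namely Map1lc3a (-0.54 ± 0.13, adjusted p = 0.00677) and Map1lc3b (-0.28 ± 0.08, adjusted p = 0.021). After total scaling neither was called (adjusted p = 0.0547 and 0.689, with Map1lc3b at 0.03), and 5 of the 14 were higher, where 44.4% of all tested loci were.

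The list of actin assembly at cell junctions, to which Enah's partners belong, had 10 genes higher and 3 lower of 22 tested, with a median of 0.22, against 20.8% higher and 20.1% lower of all tested loci. After total scaling 16 were higher and 1 lower, where 44.4% of all tested loci were higher. After cardiomyocyte scaling 17 were higher and 1 lower, where 52.4% of all tested loci were higher. The list median minus the median of all loci was 0.24 with the size factors, 0.242 after total scaling and 0.239 after cardiomyocyte scaling. Diaph3, a formin, was at 239.2 ± 75.2 normalised reads in MI and 67.7 ± 26.5 in Sham (log2 difference 1.87 ± 0.34, adjusted p = 0.00142). Fmn1, another formin, was at 633.6 ± 88.3 in MI and 258.0 ± 42.5 in Sham (1.30 ± 0.15, adjusted p = 9.75e-05). Zyx, given above, came next in this list by size of the difference.

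The remaining marker lists are given beside all tested loci, of which 20.8% were called higher and 20.1% lower. Of the skeletal muscle markers 3 of 15 were higher and 1 lower, and the most abundant were Ckm, at 104739.5 ± 19405 normalised reads in MI and 166171 ± 15327 in Sham, and Mybpc2, at 6095 ± 1254 in MI and 3446 ± 547.3 in Sham, both of which the heart also expresses. Of the atrial markers 5 of 6 were higher and 1 lower, led in level by Nppa and by Dkk3, at 7093 ± 1417 in MI and 457.7 ± 103.3 in Sham. Without MI replicates 2 and 3 only 2 of the 6 were higher. With every library kept, robust limma and voom limma also called only 2 of the 6 higher. Of the smooth muscle markers 3 of 8 were higher and 1 lower, with desmin (Des) at 372502 ± 55216 in MI and 310789 ± 38302 in Sham (not called, adjusted p = 0.141) and Smtn at 19359 ± 1729 in MI and 23884 ± 1233 in Sham, called lower (adjusted p = 0.00958) but not after total scaling (adjusted p = 0.988). Of the endothelial markers none of 8 was called higher by limma, edgeR or DESeq2 (1 by limma at an unadjusted p under 0.05) and 1 was lower, with Cdh5 at 41509 ± 1506 in MI and 36628 ± 6171 in Sham and Kdr at 26312 ± 6002 in MI and 29632 ± 6289.8 in Sham. After total scaling 5 of the 8 endothelial markers were higher and none lower by limma, where 44.4% of all tested loci were higher. After cardiomyocyte scaling 6 were higher and none lower, where 52.4% of all tested loci were higher. The most abundant macrophage markers were Csf1r, at 8613 ± 1311 in MI and 6097 ± 797.3 in Sham, and C1qa, at 7929.5 ± 1135 in MI and 4617 ± 944.5 in Sham.

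Among 12566 named genes whose mean was 50 normalised reads or more, the nearest profile over the 8 libraries was sought for each of the 10 genes, as the root mean square difference of log2 values relative to the Sham mean. The closest matches were Itga5, an integrin subunit, to Enah (0.0638), Plod3, a collagen-modifying enzyme, to Flnc (0.0674), Ass1 to Fhl1 (0.0881) and Masp1, a protease of the complement system, to Clu (0.0949). Rcan1 was nearest to Olfml3 and Uchl1 to Csrp2, a LIM protein (0.119 each), Xirp2 to Kctd16 (0.142) and Ankrd1 to Clca3a1 (0.163). The poorest matches were those of Tnni1 to Pgpep1l (0.311) and of Acta1 to Adamtsl2 (0.374), the genes with the widest spread in MI. Csrp2 was at 3814 ± 740.3 normalised reads in MI and 1057 ± 79.3 in Sham, a log2 difference of 1.83 ± 0.14 beside 1.70 for Uchl1.

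Loci that overlap the 10 genes or lie within 10 kb of them did not move as one. Within 10 kb, Nup133 beside Acta1 was lower in MI, at 2418 ± 92.9 normalised reads against 3093 ± 126.2 in Sham (log2 difference -0.36 ± 0.07, adjusted p = 0.00185). The locus of Tnnt2, 7633 bases from Tnni1 on the same strand, was also lower, at 825586 ± 75410 in MI and 1199078 ± 123136 in Sham (-0.54 ± 0.13, adjusted p = 0.00667). Map7d3 beside Fhl1 was higher, at 104.4 ± 21.3 in MI and 56.6 ± 2.78 in Sham (0.85 ± 0.19, adjusted p = 0.00465), and Rpp30 beside Ankrd1 was not called (-0.14 ± 0.10, adjusted p = 0.281). Uchl1 shares 4.56% of its exon bases with Uchl1os on the other strand, which was at 6.26 normalised reads in MI and 3.87 in Sham on average, and Enah shares 0.733% with an unnamed locus. In sequence, 9 of the 10 genes share no stretch of 100 bases, the length of a read, with a transcript of another gene, and Enah shares 15 of 22104 (0.0679%) with Gm45528.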

How the data were processed

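Poly(A)-selected RNA of 8 mouse border zone samples was read in pairs of 100 bases, per the labels' protocols. The submitters' processing notes name TopHat2 2.0.5, Cufflinks 2.0.2, HTSeq 0.5.4p2, DESeq and mm9, with no settings. The deposited table holds a signal per locus, and every value was a whole multiple of 1 step per library within 0.000001 (100% of values), that is a read count divided by a size factor. Loci were named by matching exon and intron lengths to GENCODE M21 (GRCm38) on the same chromosome and strand. Coordinates of loci are the deposited mm9 ones, and sequences are RefSeq GRCm38.p6. Differences were fitted on log2(value + 1) of the signal with limma 3.58.1 (R 4.3.3, 2-sided) over 19186 loci with a mean of at least 10, with Benjamini-Hochberg adjustment. The pseudocount understates low genes. The recovered reads were also tested with edgeR 4.0.16 and DESeq2 1.42.0. Genes and lists were chosen with earlier results of these data known, so their counts are descriptions. In each list that is not of markers the 3 called genes with the largest difference are named, and in marker lists the 2 of highest mean. Nothing but the series text says that replicates are separate animals, and p-values weigh the group difference against the spread between these samples within groups. The recovered reads are counts without molecular identifiers. Tables were made in Python 3.11.15 (pandas 2.3.3, numpy 2.4.6).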

Additional observations from a re-analysis of the deposited data

Results flagged for a closer look

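In 20 groups of 4 libraries, 1 for each gene and condition, 2 libraries lay apart from the other 3 by Dixon's criterion, which chance meets in about 1 group in 20. MI replicate 3 held 141.7 normalised reads of Tnni1, where the other MI libraries held 47.1 to 62.6, and the same library stood apart in the fast skeletal myosins described above. MI replicate 4 held 126631 normalised reads of Flnc, where the other MI libraries held 95822 to 99732.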

How the results depend on the processing

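In 22 alternatives chosen in advance (pseudocount, filter, scaling, robust or voom limma, edgeR, DESeq2, replicate block, each library left out) all 10 genes kept their direction and their call. The other scalings all moved the differences upward, so they could not turn a direction. The count over all loci, 7854, was 6660 to 7871 when 1 library was left out, and 10 genes were called each time. With the replicate numbers of the titles as a replicate block 8208 loci and all 10 genes were called. Same-numbered libraries deviated together with correlations of 0.146, 0.272, 0.160 and -0.001, so the numbers were not taken to pair the samples. Of all calls, 85.1% were higher after total scaling, 74.8% after total scaling without mitochondrial loci, 90.2% after cardiomyocyte scaling and 50.9% with the size factors. edgeR called 7937 loci and DESeq2 8447. Without MI replicates 2 and 3, added after the values were seen, 6689 loci and 9 of the 10 genes were called, and Tnni1, at 0.88, was not. Depth limits Tnni1, with 16 reads in its poorest library.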
